A study of Homo sapiens with 4 samples.

Results

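The clustered histone genes encode the linker histone H1 and the core histones H2A, H2B, H3 and H4 that package newly made DNA. They were taken as every listed gene whose symbol starts with HIST1H, HIST2H, HIST3H or HIST4H, pseudogene names left out. This rule gave 70 of 36601 genes, and 22 of these had at least 20 counts summed over the 4 libraries. Another 17 had fewer counts (19 or less each, 111 together) and 31 had no count in any library, so the 22 held 99.1% of the 11962 counts of all members.

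Single-cell RNA-seq (SORT-seq, in which cells are sorted into wells of a plate and each well carries its own barcode) was performed in U-2 OS, a human osteosarcoma cell line; the labels name no genetic change. Untreated cells (UT) were compared with cells given 4 Gy of ionizing radiation (IR), in 2 experiments with 1 UT and 1 IR library each. Cells were sorted 48 h after irradiation by the design text and the study's methods, while the treatment text in the labels gives 24 h. Libraries held 247 to 367 cells and 5736339 to 6810079 counts over genes, and nearly all plate barcodes recurred between libraries (247 of 247 to 365 of 367), as the plates carry the same set.

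Clustered histone genes are made mainly in S phase, when DNA is copied, and their mRNAs are unusual in ending at a conserved stem-loop instead of a poly(A) tail. The stem-loop is bound by SLBP and used to degrade the message when replication stops. The transcript is cut just past the stem-loop with the help of the U7 small nuclear ribonucleoprotein. SORT-seq primes on poly(A), so the counts here come from copies of these mRNAs that were captured with such a primer, and they are not levels of total histone mRNA. Replacement histones such as H3.3 and H2A.Z are encoded outside the clusters, carry poly(A) tails and are made throughout the cycle.

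The annotated 3′ ends are shown first because capture used a primer on poly(A), and which 3′ ends the captured copies had was not tested. In hg38 with GENCODE v44, 68 members were annotated and all 68 held the stem-loop pattern, 16 bases that start with GG and end with CC around a stretch of CTT, a free base, T, a free base and AG, within 500 bases after the stop codon, on the coding strand. The 68 stem-loops fell into 10 sequences. The commonest, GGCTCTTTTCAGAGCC, was found in 38 members, all of them H1, H2A, H2B or H3 genes. All 15 H4 genes had a stem that starts with GGCCC and ends with GGGCC, as in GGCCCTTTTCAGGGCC (10 members) and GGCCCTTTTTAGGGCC (4 members). The following 6 stem-loops belong to the members on which the results turn, given 5′ to 3′ on the coding strand with 5 flanking bases, the stem-loop in capitals.
HIST1H4C (chr6:26104317-26104332, plus strand): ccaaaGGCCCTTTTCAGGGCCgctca
HIST1H1A (chr6:26017037-26017052, minus strand): ccaacGGCTCTTTTAAGAGCCaccta
HIST1H1C (chr6:26055744-26055759, minus strand): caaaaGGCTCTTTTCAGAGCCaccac
HIST1H2AC (chr6:26124669-26124684, plus strand): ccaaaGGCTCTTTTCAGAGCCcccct
HIST1H2BJ (chr6:27132321-27132336, minus strand): ctaacGGCTCTTTTAAGAGCCaccca
HIST2H2BE (chr1:149886188-149886203, minus strand): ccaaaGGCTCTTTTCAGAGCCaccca
The coordinates are those of the capitals and lie in the 3′ UTR of each gene. HIST1H1A and HIST1H2BJ share 1 stem-loop sequence, and HIST1H1C, HIST1H2AC and HIST2H2BE share another.

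Of the 22 reported members, 18 lie on chromosome 6 (HIST1), 3 on chromosome 1 (HIST2) and 1 on chromosome 12 (HIST4H4), and 13 have a single annotated exon in every transcript. Their stem-loops start 23 to 58 bases after the stop codon. In 11 of them every annotated transcript ends within 18 bases past the stem-loop: all 3 reported linker genes (HIST1H1A, HIST1H1C, HIST1H1E), HIST1H4C, HIST1H4E, HIST1H4J, HIST1H2AG, HIST1H2AH, HIST2H2AC, HIST1H2BG and HIST1H2BK. The other 11 have a transcript that runs on and ends 816 to 37207 bases after the stop codon. HIST2H2BE was the reported member with no annotated end at the loop: its only transcript ends 1801 bases after the stop codon, past an AATAAA poly(A) signal at 1778 bases. The exons of 3 reported members overlap another gene's: HIST1H2BC overlaps HFE and ENSG00000291336 on the opposite strand, HIST1H2AC overlaps ENSG00000291336 on its own strand, and HIST1H4H overlaps ENSG00000289447 on the opposite strand. Reads that matched several genes were not counted by the authors, so a gene with a near-identical copy, such as HIST2H4A (22 counts) and HIST2H4B (0 counts), is uncertain.

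**Figure D1:**
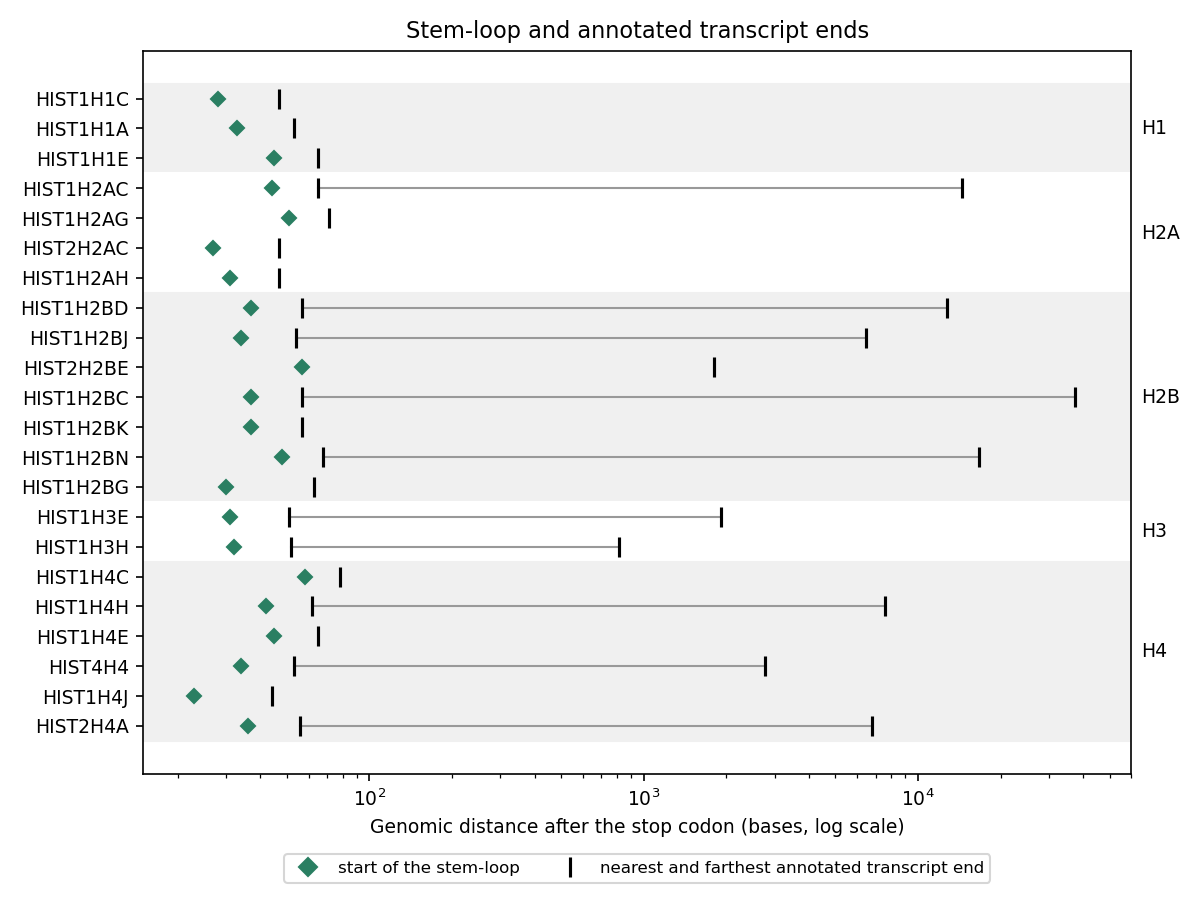
Positions downstream of the stop codon in the 22 reported members, as genomic distance in bases on a log axis, by histone type. Green diamonds are the start of the stem-loop (23 to 58 bases), and black ticks the nearest and farthest annotated transcript end, joined by a grey line where they differ; 11 members have an end far past the loop.

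RefSeq promoter windows (GRCh38.p14) matched 65 of the 70 members, all except HIST1H4A, HIST1H4C, HIST1H2AH, HIST1H3I and HIST1H3J. In the 250 bases before the start site, on either strand, CCAAT (the NF-Y motif) was present in 55 of 65 members against 32.0% of 35116 promoters. All 6 H1, 16 H2A, 18 H2B and 12 H3 genes held it, and 3 of 13 H4 genes did. TATAAA was present in 44 of 65 members and 10.7% of all promoters. The octamer ATTTGCAT was present in 25 of 65 members and 1.63% of all promoters, in 11 of 16 H2A and 14 of 18 H2B genes and no H1, H3 or H4 gene. Divergent H2A and H2B neighbours share most of their windows, and the window of HIST1H2BE lies 11702 bases from its annotated start. AAACACA, the H1 box, was present in all 6 H1 genes, in no other member and in 4.82% of all promoters. The windows below are from the 3 reported linker genes, all lower in IR with the experiment blocked, and from HIST2H2BE, which was lower in S-high cells of UT, as described further on. They run 5′ to 3′ on the gene's strand up to the base before the start site, with every match to these 4 motifs on either strand in capitals, a match on the other strand being shown as its reverse complement.
HIST1H1A (chr6:26017788-26018037, minus strand): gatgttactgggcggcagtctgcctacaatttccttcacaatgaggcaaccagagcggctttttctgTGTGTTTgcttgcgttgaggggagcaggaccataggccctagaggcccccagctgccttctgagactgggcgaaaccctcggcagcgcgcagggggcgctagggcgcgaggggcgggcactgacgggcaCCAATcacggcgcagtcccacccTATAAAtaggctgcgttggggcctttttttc
HIST1H1C (chr6:26056471-26056720, minus strand): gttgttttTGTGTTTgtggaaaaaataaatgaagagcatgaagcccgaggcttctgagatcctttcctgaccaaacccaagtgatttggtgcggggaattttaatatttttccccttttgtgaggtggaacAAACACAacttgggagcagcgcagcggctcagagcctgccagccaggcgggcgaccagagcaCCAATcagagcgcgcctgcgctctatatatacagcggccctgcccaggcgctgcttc
HIST1H1E (chr6:26156079-26156328, plus strand): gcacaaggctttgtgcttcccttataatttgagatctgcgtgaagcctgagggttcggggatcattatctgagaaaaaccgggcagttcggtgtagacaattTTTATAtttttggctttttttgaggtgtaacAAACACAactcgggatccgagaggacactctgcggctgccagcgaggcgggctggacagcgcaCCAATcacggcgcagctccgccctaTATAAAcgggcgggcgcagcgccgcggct
HIST2H2BE (chr1:149886683-149886932, minus strand): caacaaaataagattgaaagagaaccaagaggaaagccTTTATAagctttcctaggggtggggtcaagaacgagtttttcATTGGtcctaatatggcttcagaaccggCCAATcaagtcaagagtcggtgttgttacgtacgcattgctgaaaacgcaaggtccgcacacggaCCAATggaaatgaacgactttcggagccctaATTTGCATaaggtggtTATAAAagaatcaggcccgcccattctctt
In the 3 linker windows the CCAAT nearest the start site begins 54 to 57 bases before it. In HIST2H2BE the octamer begins 46 bases before the start site. A match describes the letters only.

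The members were captured at very different levels. Levels are given as CPM, the gene's share of all gene counts of a library with its cells summed, scaled to 1 total that is the same for every library, in the order UT and IR of experiment 1, then UT and IR of experiment 2. HIST1H4C, an H4 gene, alone held 44.5% of all member counts. The linker gene HIST1H1C held 9.64%, HIST1H2AC 9.52%, HIST1H2BD 7.50% and the linker gene HIST1H1A 5.15%. Of the 6 linker genes, HIST1H1B, HIST1H1D and HIST1H1T had no count. The H3 genes together came to 6.61 to 9.41 CPM per library, and the H4 genes to 111 to 359 CPM.

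Summed over all 70 members, the level was 604, 304, 613 and 404 CPM, so both IR libraries lay below both UT libraries. Core members without HIST1H4C summed to 169, 176, 207 and 225 CPM, with the 2 libraries of an experiment close together and the groups overlapping. Linker members summed to 98.0, 40.3, 103 and 54.3 CPM, with both IR libraries below both UT libraries. HIST1H4C and the other H4 genes made up 59.5% and 52.9% of member counts in the UT libraries and 36.4% and 37.7% in the IR libraries, and H2B genes 14.4% and 17.2% against 31.7% and 31.3%. The summed level of the H2B genes was 86.9, 96.2, 105 and 127 CPM, with the groups overlapping.

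**Figure D2:**
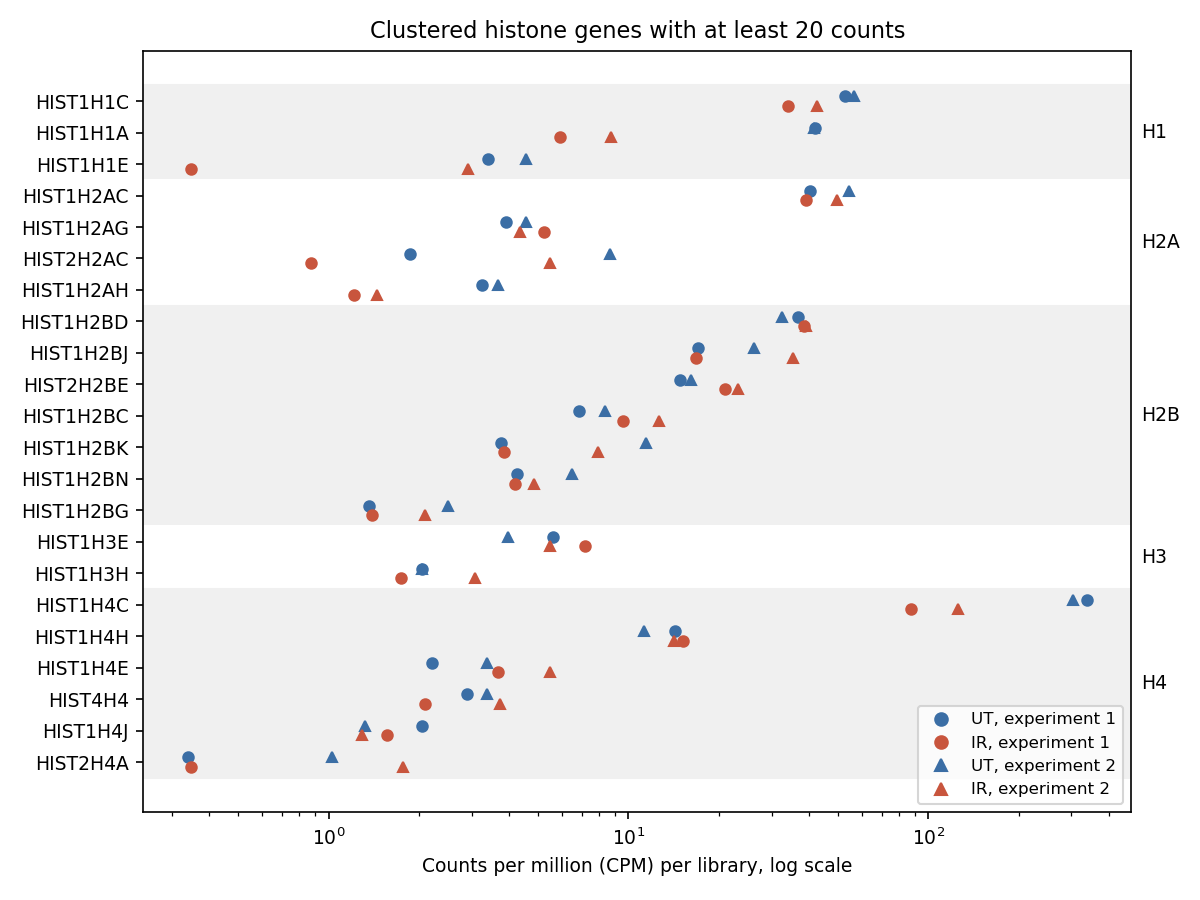
Level of each of the 22 reported members in CPM (log axis), by histone type; blue is UT, red is IR, circles are experiment 1 and triangles experiment 2. HIST1H4C (87.4 to 337 CPM) lies above all other members, and the IR points of HIST1H4C, HIST1H1A, HIST1H1C, HIST1H1E and HIST1H2AH lie to the left of their UT points.

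Comparing IR with UT over all 14647 genes tested, 2 of the 20 members tested were lower in IR, none was higher and 18 were not called (edgeR quasi-likelihood test, adjusted p over all genes). Of all genes tested, 0.847% were lower and 1.63% higher. The 4 members with an unadjusted p under 0.05 were all lower. Medians were -0.18 over the 20 members and -0.003 over all genes (log2 fold change). HIST1H4J and HIST2H4A passed the minimum of 20 counts but not the test's filter on low counts. Fewer expressing cells and less RNA per cell cannot be told apart in these sums.

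Among linker histones, which bind the DNA between nucleosomes, HIST1H1A (H1.1) had 41.8, 5.93, 41.6 and 8.73 CPM, from 245, 34, 283 and 54 counts. The 2 UT libraries were nearly equal and both IR libraries lay far below them. HIST1H1A fell by 2.58 on the log2 scale (SE 0.23, edgeR adjusted p = 0.0137), to a level 5.97-fold lower.

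HIST1H1C (H1.2) had 52.8, 34.0, 56.4 and 42.7 CPM. The groups did not overlap, yet its log2 difference of -0.59 (SE 0.18) was not called by edgeR (adjusted p = 0.138). Scaled to spike-ins, with the experiment blocked, the difference was 0.02, where the median of all genes was 0.61. HIST1H1E (H1.4) had 3.41, 0.349, 4.55 and 2.91 CPM, from 20, 2, 31 and 18 counts. Its groups did not overlap either, and its log2 difference of -1.34 carried an SE of 0.72 (edgeR adjusted p = 0.386). It was -0.54 without IR replicate 1 and -3.51 without IR replicate 2. All 3 linker genes were called lower in the fit that blocks on experiment, HIST1H1C with an edgeR adjusted p of 2.0e-04 and HIST1H1E with 0.0121. In that fit 12.9% of all genes tested were lower. The median over the linker genes was the value of HIST1H1E, -1.34 on the log2 scale (-2.88 to -0.54 with 1 library left out), against 0.08 over the 17 core genes tested, of which 1 was lower.

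Among core histones, HIST1H4C had 337, 87.4, 303 and 125 CPM, from 1976, 501, 2067 and 774 counts. Both IR libraries lay below both UT libraries, with the larger gap in experiment 1 (log2 ratio -1.95 against -1.28 in experiment 2). HIST1H4C fell by 1.67 on the log2 scale (SE 0.20, edgeR adjusted p = 0.0200), to a level 3.19-fold lower. HIST1H2AH, with 3.24, 1.22, 3.67 and 1.45 CPM, from 19, 7, 25 and 9 counts, had the next largest difference (-1.43, SE 0.41, edgeR adjusted p = 0.125). Its groups did not overlap, and it was called with the block (edgeR adjusted p = 0.00932).

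The other H4 genes did not show the pattern of HIST1H4C. HIST1H4H had 14.3, 15.2, 11.3 and 14.2 CPM, with overlapping groups and a log2 difference of 0.12 (SE 0.23). HIST1H4E had 2.22, 3.66, 3.38 and 5.50 CPM and a log2 difference of 0.62 (SE 0.39, edgeR adjusted p = 0.461), with both IR libraries above both UT libraries. HIST4H4 lay between 2.09 and 3.72 CPM and overlapped.

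The H2B genes, of which 7 were tested and none called, had a median of 0.08 on the log2 scale. HIST1H2BD had 36.6, 38.4, 32.5 and 39.0 CPM, with IR above UT by 0.08 (SE 0.17). HIST2H2BE had 14.8, 20.9, 16.2 and 23.3 CPM. The IR libraries lay above the UT libraries by a similar ratio in both experiments (log2 0.50 and 0.53), and the difference of 0.43 (SE 0.19) was not called (edgeR adjusted p = 0.294). HIST1H2BC, at 6.82, 9.59, 8.37 and 12.6 CPM, also lay higher in both IR libraries (0.47, SE 0.27, edgeR adjusted p = 0.419). HIST1H2BJ differed more between experiments than between treatments, at 17.0, 16.7, 26.3 and 35.2 CPM (0.18, SE 0.37).

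The H2A genes other than HIST1H2AH did not differ beyond their spread. HIST1H2AC had 40.4, 39.1, 54.5 and 49.6 CPM, the groups overlapping (-0.18, SE 0.21). HIST2H2AC had 1.87, 0.872, 8.66 and 5.50 CPM and was set by the experiment more than by treatment. The H3 genes HIST1H3E (3.96 to 7.15 CPM) and HIST1H3H (1.74 to 3.07 CPM) had a median of 0.24, neither called. Of the 20 members tested, 5 had both IR libraries below both UT libraries and 4 had both above, against 18.5% and 30.7% of all genes tested.

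**Figure D3:**
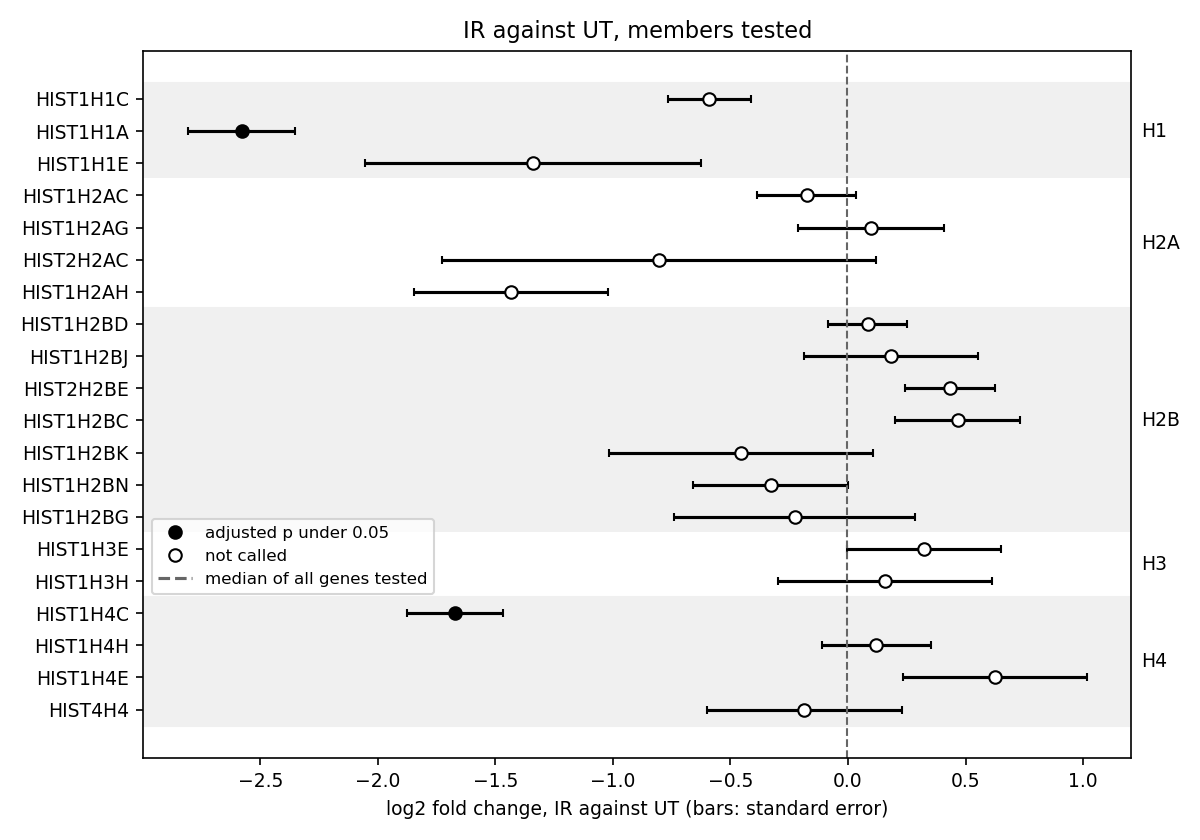
Log2 fold change of IR against UT for the 20 members tested, by histone type, with bars of 1 standard error from edgeR; filled points are called (HIST1H1A at -2.58, HIST1H4C at -1.67), open points are not. The dashed line is the median of all genes tested (-0.003), and all 3 linker genes lie below it.

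With the experiment as a block, 5 members were lower (HIST1H1A, HIST1H1C, HIST1H1E, HIST1H4C and HIST1H2AH), none was higher and 15 were not called, against 12.9% of all genes lower and 14.3% higher. All 5 have no annotated transcript end far past the stem-loop. Over the 10 tested members of that kind, 2 were called without the block and the median log2 difference was -0.70. Over the 10 tested members with an annotated end past the loop none was called and the median was 0.14. All 3 tested linker genes are in the first class, so for them class and type cannot be told apart. Within the core genes the 7 tested without such an end had a median of -0.45, with 1 lower (2 with the block), and the 10 with one had 0.14, with none called. By experiment, the median log2 ratio of CPM was 0.03 in experiment 1 and -0.53 in experiment 2 without such an end. With one it was 0.02 and 0.375, so the core classes lay apart in experiment 2 and not in experiment 1. In IR, members with an annotated end past the loop held 51.4% and 48.0% of member counts, and in UT 24.2% and 27.2%, while their own summed level was 146, 156, 167 and 194 CPM.

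To follow the members across the cell cycle, each cell was thinned to 8000 UMIs (unique molecular identifiers, 1 per captured molecule) and given an S score from 38 genes and a G2M score from 53 genes that mark these phases, none of them a clustered histone gene. Scores were set to the mean and SD of the UT cells of the same experiment. A cell with the S score at or above that mean and at least as high as the other score was called S-high, one with the G2M score at or above the mean and higher G2M-high, and the rest low-cycle. These are ranges of a score, not cell types: 17 of 96 and 14 of 100 low-cycle cells in UT, and 6 of 135 and 14 of 147 in IR, had a score within 0.25 SD of the cut, as did 51 of 131 and 52 of 143 S-high cells in UT and 29 of 47 and 17 of 35 in IR. S-high cells were 39.3% and 40.2% of UT cells and 20.3% and 15.1% of IR cells, and low-cycle cells 28.8% and 28.1% against 58.4% and 63.4%. Of the score genes themselves, 5 of 38 and 7 of 53 were lower in IR over all cells, and 36 and 47 with the block. The cells of each state were then summed, all counts included.

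In UT, 6 of the 17 members tested differed between S-high and low-cycle cells, 3 in each direction (edgeR, adjusted over 12835 genes with the library as a block). Of all genes, 11.2% were higher and 8.59% lower in S-high cells. HIST1H4C had 111 and 81.9 CPM in low-cycle cells and 478 and 457 in S-high cells of the 2 UT libraries, a log2 difference of 2.31 (SE 0.10, edgeR adjusted p = 2.8e-27). HIST1H1A went from 5.43 and 6.20 to 68.9 and 63.0 CPM (3.51, SE 0.26, edgeR adjusted p = 1.3e-18). The third, HIST1H1E, rested on few counts, 1 and 1 in low-cycle and 10 and 21 in S-high cells (3.12, SE 0.89, edgeR adjusted p = 0.00702).

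The other 3 members moved the opposite way. HIST2H2BE fell from 25.1 and 23.6 CPM in low-cycle to 8.84 and 13.1 CPM in S-high cells of UT (log2 difference -1.10, SE 0.27, edgeR adjusted p = 0.00149). HIST1H2BD fell from 46.9 and 43.4 to 30.04 and 29.7 CPM (-0.56, SE 0.18, edgeR adjusted p = 0.0202). HIST1H3E fell from 8.15 and 9.92 to 1.77 and 1.42 CPM, from 12 and 16 to 4 and 4 counts (-2.45, SE 0.59, edgeR adjusted p = 0.00124). All 3 of the members called lower in S-high cells have an annotated end past the stem-loop, and all 3 called higher do not. Direction did not follow this class throughout. HIST1H2BC (1.06, SE 0.45) and HIST1H2BN (1.13, SE 0.59) have such an end and lay higher in S-high cells, though not called. HIST1H2AC in G2M-high cells of UT (0.84) and HIST1H2BJ in S-high cells of IR (1.20) also have one and were called higher. Whether the classes differ over the states was not tested. HIST1H1E and HIST1H2BD were not called without UT replicate 1 (edgeR adjusted p = 0.0777 and 0.266) or UT replicate 2 (0.359 and 0.205), HIST2H2BE not without UT replicate 1 (0.186) and HIST1H3E not without UT replicate 2 (0.144). HIST1H4C and HIST1H1A were called without any one library.

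HIST1H1C, the second most counted member, did not follow the S genes, at 50.9 and 68.2 CPM in low-cycle and 53.9 and 49.2 CPM in S-high UT cells (-0.20, SE 0.26, edgeR adjusted p = 0.662). HIST1H2AC was at 34.6 and 40.3 CPM in low-cycle and 27.0 and 49.6 CPM in S-high cells (0.07, SE 0.19).

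In G2M-high cells of UT, 4 of 17 members were higher than in low-cycle cells and 2 lower, against 12.2% and 10.3% of all genes. HIST1H4C had 356 and 276 CPM (1.75 above low-cycle cells, SE 0.11, edgeR adjusted p = 4.2e-21) and HIST1H1A 40.1 and 40.3 CPM (2.81, SE 0.29). HIST1H2AC was the member that was higher in G2M-high but not in S-high cells, at 61.9 and 69.0 CPM (0.84, SE 0.18, edgeR adjusted p = 1.9e-04), although the 2 states were not compared with each other directly. HIST1H1E was higher (2.62), and HIST2H2BE (-0.76) and HIST1H2BD (-0.52) were lower. These 3 calls were lost without either UT library, with edgeR adjusted p from 0.173 to 0.384.

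**Figure D4:**
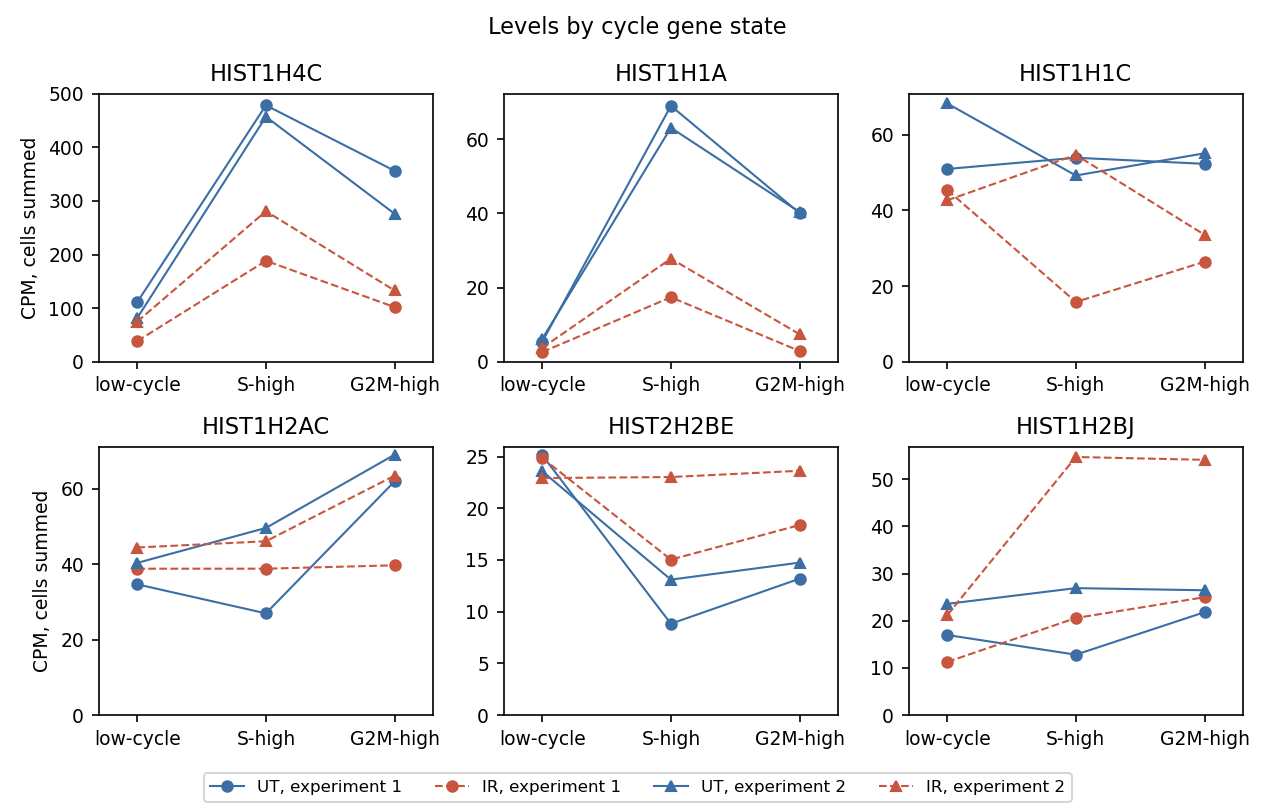
CPM of 6 members in low-cycle, S-high and G2M-high cells, each point the summed cells of 1 library and state; blue solid lines are UT, red dashed lines IR, circles experiment 1, triangles experiment 2, and the lines join states, not times. HIST1H4C and HIST1H1A peak in S-high cells of all 4 libraries and lie lower in IR, while HIST2H2BE is highest in low-cycle cells of UT.

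In IR, 4 members were higher in S-high than in low-cycle cells and 1 was lower, against 12.4% and 9.05% of all genes. HIST1H4C went from 38.8 and 75.2 to 188 and 281 CPM (2.05, SE 0.12, edgeR adjusted p = 1.4e-22), and HIST1H1A from 2.65 and 3.77 to 17.4 and 27.8 CPM (2.81, SE 0.35, edgeR adjusted p = 6.3e-10). HIST1H2BJ rose from 11.3 and 21.2 to 20.6 and 54.7 CPM (1.20, SE 0.24, edgeR adjusted p = 5.0e-05), but was not called without IR replicate 2 (0.152). HIST2H2AC was higher (2.08, edgeR adjusted p = 0.00902, and 0.0678 without IR replicate 1), and HIST1H3E lower (-2.41, edgeR adjusted p = 0.00513, and 0.174 without IR replicate 2).

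In G2M-high cells of IR, 3 members were higher than in low-cycle cells and none lower, against 12.3% and 10.1% of all genes; 5 had an unadjusted p under 0.05. HIST1H4C had 102 and 133 CPM (1.05, SE 0.13, edgeR adjusted p = 1.1e-09) and HIST1H2BJ 24.98 and 54.1 CPM (1.28, SE 0.21, edgeR adjusted p = 2.2e-06). HIST1H2AG, at 11.8 and 4.97 CPM against 2.32 and 3.19, rested on experiment 1 (1.52, edgeR adjusted p = 0.0272, and 0.677 without IR replicate 1). HIST1H1A was not called (0.71, SE 0.47, edgeR adjusted p = 0.302), from 4 and 12 counts.

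Within a state, IR was then compared with UT. In low-cycle cells none of the 13 members tested was called by edgeR, against 0.267% of all genes lower and 0.338% higher; 3 had an unadjusted p under 0.05. With the block 2 were lower (HIST1H4C and HIST1H1C) and 1 higher (HIST1H4E), against 6.56% and 7.44% of all genes. HIST1H4C was at 111 and 81.9 CPM in UT and 38.8 and 75.2 CPM in IR low-cycle cells (-0.82, SE 0.32, edgeR adjusted p = 0.326, and 4.5e-06 with the block). The median S score of low-cycle cells was -1.67 and -1.65 SD in IR against -1.19 and -1.23 in UT, and its part was not tested.

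In S-high cells HIST1H1A and HIST1H4C were lower in IR and the other 11 members tested were not called, against 0.288% of all genes lower and 0.753% higher. HIST1H1A was at 68.9 and 63.0 CPM in UT and 17.4 and 27.8 CPM in IR (-1.65, SE 0.28, edgeR adjusted p = 0.0184). HIST1H4C was at 478 and 457 CPM in UT and 188 and 281 CPM in IR (-1.09, SE 0.22, edgeR adjusted p = 0.0421). Neither was called without IR replicate 1 (edgeR adjusted p = 0.132 and 0.318). The S score itself was lower in these IR cells, with a median of 0.66 and 0.62 SD above the UT mean against 0.89 and 0.87 in UT, and its part in the difference was not tested.

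In G2M-high cells the same 2 members were lower in IR, against 0.153% of all genes lower and 0.484% higher. HIST1H1A was at 40.1 and 40.3 CPM in UT and 2.94 and 7.46 CPM in IR (-2.98, SE 0.38, edgeR adjusted p = 0.0143). HIST1H4C was at 356 and 276 CPM in UT and 102 and 133 CPM in IR (-1.51, SE 0.22, edgeR adjusted p = 0.0230). Both were called without any one library. The G2M score was lower in these IR cells, with a median of 0.64 and 0.68 SD above the UT mean. In UT it was 0.98 and 1.03, and its part in the difference was not tested. With the block HIST1H1C was lower as well (52.3 and 55.1 CPM in UT, 26.4 and 33.6 CPM in IR, edgeR adjusted p = 0.00253), against 4.83% of all genes lower and 6.7% higher.

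The IR levels of the states were also weighted by each state's share of counts in the UT library of the same experiment. HIST1H4C then came to 120 CPM in place of 87.6 in experiment 1 and to 181 in place of 126 in experiment 2, where UT had 341 and 305. The log2 ratio to UT was thus -1.51 against -1.96 as observed in experiment 1, and -0.75 against -1.28 in experiment 2. For HIST1H1A it was -2.31 against -2.82 and -1.46 against -2.24. Both genes stayed below UT with the shares held equal. Within S-high and G2M-high cells the scores were lower in IR, so equal shares do not make the cells equal in score. HIST2H2BE moved little under the same weighting (0.36 against 0.54, and 0.52 against 0.52).

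Whether the contrast between states differed between treatments was tested directly. For S-high against low-cycle cells none of 17 members differed by edgeR, against 0.0935% of all genes lower and 0.429% higher; 2 had an unadjusted p under 0.05. For G2M-high against low-cycle cells HIST1H4C differed (-0.70 in IR minus UT, SE 0.17, edgeR adjusted p = 0.0440), against 0.0545% of all genes lower and 0.249% higher. It was not called without UT replicate 1, UT replicate 2 or IR replicate 2 (edgeR adjusted p = 0.240, 0.331 and 0.708). HIST1H1A had a larger difference that was not called (-2.10, SE 0.58, edgeR adjusted p = 0.0898).

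Per cell, HIST1H4C had at least 1 UMI in 225 of 333 (67.6%, 95% exact interval 62.2 to 72.6) and 236 of 356 (66.3%, 61.1 to 71.2) UT cells thinned to 8000 UMIs. In IR cells it was 84 of 231 (36.4%, 30.2 to 42.9) and 93 of 232 (40.1%, 33.7 to 46.7). Both IR shares lay below both UT shares, and the intervals, which cover counting error only, do not overlap. Without thinning it was found in 78.8% and 79.3% of UT cells against 57.5% and 62.1% of the deeper IR cells. No cell type that should lack the gene is present in a single line, so the part of free RNA in these shares was not tested.

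HIST1H4C was spread unevenly over cells. Of UT cells 18.0% and 13.5% had 5 to 9 UMIs, against 3.03% and 3.45% of IR cells. Another 16 and 9 UT cells had 10 or more, against 0 and 3 IR cells. The 10% of cells with the most UMIs held 40.8% and 38.9% of its UMIs in UT and 54.7% and 61.7% in IR. It was found in 88.5% and 81.8% of S-high and 40.6% and 49.0% of low-cycle UT cells, and in 66.0% and 48.6% of S-high and 28.1% and 35.4% of low-cycle IR cells.

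HIST1H1A was detected in 21.3% (17.0 to 26.1) and 21.6% (17.5 to 26.3) of UT cells and 5.63% (3.03 to 9.43) and 5.17% (2.7 to 8.86) of IR cells. Of the UT cells with HIST1H1A, 65 of 71 and 68 of 77 also had HIST1H4C, and of the IR cells 10 of 13 and 10 of 12. At least 1 member was seen in 92.5% and 93.5% of UT and 86.6% and 88.8% of IR cells, with a median of 2 members per cell in every library. With HIST1H4C left out, experiment 1 had 78.4% of UT cells against 77.1% of IR cells, and experiment 2 had 83.7% against 82.8%.

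**Figure D5:**
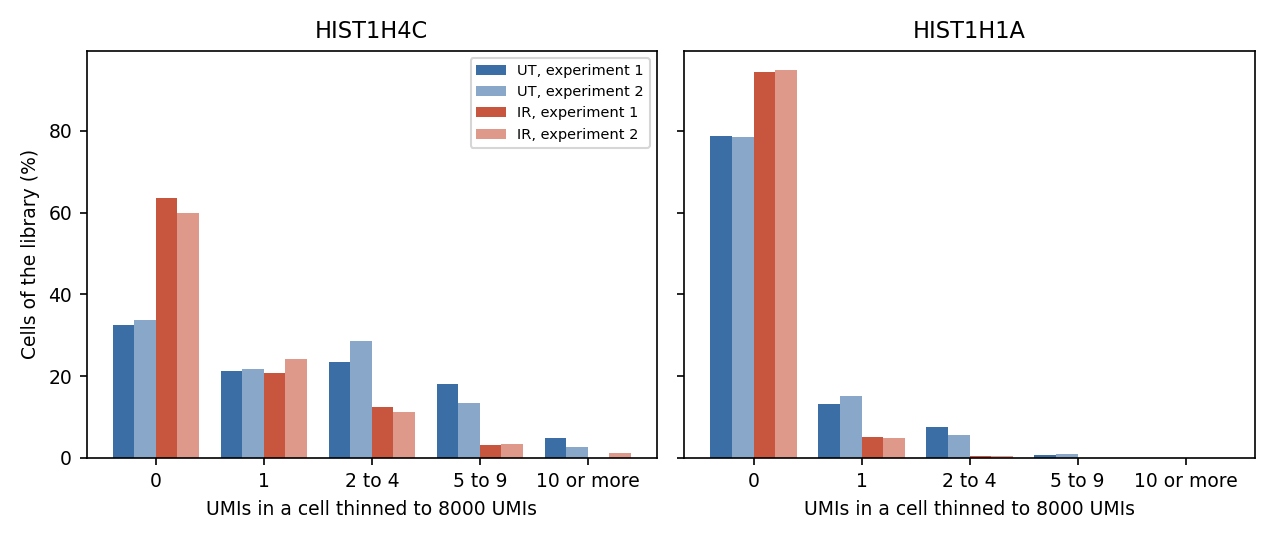
Share of cells (% of the library's thinned cells, axis from 0) with 0, 1, 2 to 4, 5 to 9 and 10 or more UMIs of HIST1H4C and HIST1H1A; blue bars are UT, red bars IR, paler bars experiment 2. No HIST1H4C UMI was found in 32.4% and 33.7% of UT cells against 63.6% and 59.9% of IR cells, and in IR no cell had more than 4 UMIs of HIST1H1A.

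Across cells of a library, HIST1H4C followed the S score, with a Spearman correlation of 0.57 and 0.53 in the 333 and 356 UT cells and 0.32 and 0.24 in the 231 and 232 IR cells. The points share the plate and, after thinning, the depth. With HIST1H1A the correlation was 0.46, 0.39, 0.25 and 0.27 (UT 1, UT 2, IR 1, IR 2). With HIST1H1C it lay between -0.08 and 0.09, with HIST1H2BD between -0.10 and -0.06, and with HIST2H2BE between -0.11 and 0.03. Of 6122 non-member genes detected in at least 20% of cells of each UT library, those most like HIST1H4C over UT cells were RRM2 (mean correlation 0.46), FEN1 (0.45), ATAD2 (0.44), PCLAF (0.43) and TYMS (0.42). RRM2 is a ribonucleotide reductase subunit, FEN1 the flap endonuclease, PCLAF a PCNA partner and TYMS thymidylate synthase; all of these except PCLAF are on the S phase list.

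The genes that serve the clusters were taken from 3 lists, chosen with earlier results of these data known. Of 17 genes of histone gene transcription and 3′ end processing, 1 was lower in IR, none higher and 16 were not called (median -0.22 on the log2 scale). This was E2F1, at 60.8, 26.3, 65.6 and 31.8 CPM (-1.20, SE 0.17, edgeR adjusted p = 0.0276). CASP8AP2 (FLASH), which helps to cut the 3′ end, was at 39.5, 29.3, 42.6 and 27.0 CPM (-0.62, edgeR adjusted p = 0.105), and SLBP at 66.0, 48.3, 65.8 and 50.1 CPM (-0.50, edgeR adjusted p = 0.144), both with IR below UT in each experiment. With the block 6 of the list were lower and none higher, where 12.9% of all genes were lower.

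Of 10 chaperone and supply genes none was called (median -0.41), and with the block 7 were lower. NASP, an H3-H4 chaperone, was at 369, 223, 378 and 265 CPM (-0.69, SE 0.16, edgeR adjusted p = 0.0728), and CHAF1A, a subunit of chromatin assembly factor 1, at 52.1, 33.3, 46.6 and 24.2 CPM (-0.86, SE 0.21, edgeR adjusted p = 0.0848). Of 12 replacement and variant histone genes 11 were tested and none was called (median -0.63). The linker variant H1F0 was at 233, 105, 308 and 157 CPM (-1.12, SE 0.23, edgeR adjusted p = 0.0604), and H2AFZ, the H2A.Z gene, at 1225, 902, 1473 and 944 CPM (-0.63, SE 0.17, edgeR adjusted p = 0.105). With the block 9 of the 11 were lower and none higher. The share of all genes lower with the block was 12.9%. In UT, 7 of the 11 variants, 9 of the 17 processing genes and 7 of the 10 chaperones were higher in S-high than in low-cycle cells, none of them lower, where 11.2% of all genes were higher and 8.59% lower.

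As a check of the line, COL1A1, SPARC and VIM had 1114 to 2377 CPM in every library, RUNX2 up to 30.2 CPM and COL1A2 at most 2.64 CPM. ALPL, at 2.56, 9.41, 1.76 and 7.92 CPM, was higher in IR (1.93, SE 0.34, edgeR adjusted p = 0.0412), and VIM was called lower only with the block (edgeR adjusted p = 0.0227). Of the markers of other cell types EPCAM lay between 13.6 and 17.2 CPM and the others at 4.11 CPM or less, HBB at 0. The median depth was 15663 and 17627 UMIs per cell in UT and 20181 and 22035 in IR. All log2 differences above are relative to the library total. Scaled by the number of cells instead, with the block, the median of all genes moved to 0.54 on the log2 scale. HIST1H1A was then -2.04 and HIST1H4C -1.14, both still lower (edgeR adjusted p = 4.5e-24 and 1.1e-24), and 8 of the 20 members tested were higher, where 65% of all genes were higher and 1.89% lower.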

How the data were processed

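SORT-seq libraries of U-2 OS cells, 1 per treatment and experiment (4 in all, 1220 cells), were used as deposited. The authors mapped reads with STARsolo to GRCh38 without intronic reads or reads matching several genes, and deposited estimated counts: UMI counts per gene and cell corrected for chance reuse among 4096 possible UMIs (99.9% of values fell on this correction). A GENCODE release of GRCh38 was the stated reference, and the strand setting was not given in the sources used here. Spike-ins (92 ERCC) were left out of gene totals. No cell filter was applied to sums, and no doublet caller was run.

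Counts were summed per library, or per library and cycle state, rounded to whole numbers and tested with edgeR 4.0.16 (TMM, quasi-likelihood, Benjamini-Hochberg over all genes passing its filter on low counts, threshold 0.05; R 4.3.3). DESeq2 1.42.0 was an alternative. IR against UT was fitted without a block, and state contrasts with the library as a block in 1 fit of 12 sums. The experiment number in the titles marks a shared experiment and so pairs libraries: same-numbered libraries deviated together over 14647 genes (r = 0.635), and adding the block lowered the biological coefficient of variation from 0.177 to 0.0727. With 2 libraries a group, p-values rest on few residual degrees of freedom (2, or 1 with the block). In data simulated for IR against UT (14580 genes), the fit without the block recovered 42% of genes changed 2-fold and 97% of those changed 4-fold, and with the block (14603 genes) 96% and 100%. The changed genes were drawn above a minimum of counts that most members tested did not reach. These shares therefore do not cover members with few counts, such as HIST1H1E and HIST1H2AH.

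Cells were thinned to 8000 UMIs for shares, scores and correlations, leaving out 25 and 11 UT and 16 and 16 IR cells below that depth. Intervals are exact binomial and cover counting error only. Stem-loops were read from hg38 with GENCODE v44, which need not match the release used for counting, and promoters from RefSeq (GRCh38.p14), taking of several windows the one nearest the annotated start. Values per library were given for members of at least 20 CPM in a group, members called and up to 10 others by p, and comparison lists by their lowest p. The members, lists and rules were chosen with earlier results of these data known. Alternatives were the block, DESeq2 and its size factors, no filter on low counts, genes under 20 counts per cell on average, equal thinned cells, other scalings, other state cuts, scores and seeds, and each library left out.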

Additional observations from a re-analysis of the deposited data

Results flagged for a closer look

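The G2M-high against low-cycle contrast of HIST1H4C differed between treatments by the interaction test, at -0.70 on the log2 scale in IR minus UT (SE 0.17, edgeR adjusted p = 0.0440). It was 1.75 in UT and 1.05 in IR. Adjusted p ranged from 0.00213 to 0.708 with 1 library left out, and the contrast was not called without UT replicate 1, UT replicate 2 or IR replicate 2, with scores from unthinned counts (0.0553) or without the block.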

How the results depend on the processing

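HIST1H1A and HIST1H4C were lower in IR under every alternative run for the comparison over all cells, with any 1 library left out and with both other scalings. Over all genes, 124 were lower and 239 higher. Lower and higher calls were 1883 and 2094 with the replicate block, 584 and 929 with no filter on low counts, 38 and 104 in equal thinned cells, 277 and 9516 scaled per cell, and 62 and 5010 scaled to spike-ins (both scalings with the block). DESeq2 called 216 lower. Leaving out 1 library gave 20 to 88 lower and 103 to 168 higher. Members called lower were 5 with the block and 2 in every set with 1 library left out, and members called higher were 8 scaled per cell and 6 scaled to spike-ins, where the median of all genes was 0.54 and 0.61. For the members, the block changed no other call of IR against UT.

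The core median was -0.13 in equal thinned cells, 0.63 per cell and 0.70 with spike-ins, and -0.35 to 0.15 with 1 library left out. The linker median ranged from -2.88 to -0.54. In low-cycle cells the block gave 2 lower and 1 higher, no filter on low counts gave 1 lower, and leaving out a library 0 to 1 lower. In S-high cells unthinned scores and the other thinning seed each left 1 lower, and leaving out a library 0 to 3. Without the library block, S-high against low-cycle cells in UT had 1 lower, G2M-high in UT 0 lower and 2 higher, S-high in IR 0 lower and 2 higher, G2M-high in IR 0 higher, and the treatment difference for G2M-high 0. S-high in UT had 5 higher with unthinned scores. G2M-high in UT had 0 lower with a state cut at 0.5 or no filter on low counts and 1 with the other seed. G2M-high in IR had 1 lower with unthinned scores, with the other seed and with no filter. With 1 library left out, the lower and higher calls were 1 to 3 and 2 to 4 (S-high, UT), 0 to 2 and 3 to 5 (G2M-high, UT), 1 to 2 and 4 (S-high, IR), 0 to 1 and 2 to 3 (G2M-high, IR), and 0 to 1 for the treatment difference. The cause of these changes was not tested.

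Direction turned for neither of the 2 members called over all cells, but turned for HIST1H1C scaled to spike-ins (0.021). Under both scalings it turned for HIST1H2AC (0.37 per cell, 0.44 with spike-ins), HIST1H2BG (0.31 and 0.35), HIST1H2BK (0.10 and 0.17), HIST1H2BN (0.21 and 0.28) and HIST4H4 (0.35 and 0.39). The median of all genes was then 0.54 per cell and 0.61 with spike-ins, above all of these values. Direction also turned for HIST1H2AG in equal thinned cells (-0.58). With 1 library left out it turned for HIST1H2AC (-0.36 to 0.044), HIST1H2AG (-0.049 to 0.23), HIST1H2BD (-0.014 to 0.18), HIST1H2BG (-0.57 to 0.27, and 0.02 without IR replicate 1), HIST1H2BJ (-0.45 to 0.61, and -0.08 without UT replicate 1), HIST1H2BK (-1.07 to 0.56), HIST1H3H (-0.30 to 0.49), HIST1H4H (-0.053 to 0.31), HIST2H2AC (-2.65 to 0.68) and HIST4H4 (-0.65 to 0.15). Of UT cells 78.8% and 79.3% had HIST1H4C without thinning and 50.4% and 46.9% at 4000 UMIs, and of IR cells 57.5% and 62.1%, and 26.8% and 26.3%. Members below 20 counts are beyond what this depth resolves.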
